A study of Mus musculus with 2 samples.

Results

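The tumour necrosis factor (TNF) receptor superfamily, its ligands and the TRAF adaptors were compared between 661W cells carrying an empty vector and 661W cells expressing 3xF-TRPM1. Members were taken by gene symbol: the numbered Tnfrsf, Tnfsf, Tnfaip and Traf genes, with Ltbr, Fas, Cd40, Ngfr, Tradd, Ripk1, Birc2 and Birc3. The rule fitted 54 mouse gene names in RefSeq, of which 36 were in the deposited table of 13281 genes. The other 18, among them Cd40, Ngfr, the osteoprotegerin gene Tnfrsf11b and Tnfsf10, were not analysed here. 661W is an immortalized mouse line that the labels call a photoreceptor cell. Both cultures were under normal culture conditions and had been infected with a retroviral pBABE-Puro vector; in one the vector was empty, and in the other it encoded full-length human TRPM1, a calcium-permeable cation channel, with a 3xFLAG tag at its N-terminus. Each condition is 1 culture and 1 library, and such stable cultures are puromycin-selected populations. A difference between the libraries therefore has no replicate check, and TRPM1 cannot be told apart from any other difference between the cultures.

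Ligands of the TNF family bind as trimers to receptors on the cell surface. Receptors with an intracellular death domain recruit adaptors such as TRADD and can start apoptosis or necroptosis through caspase-8 or RIPK3. Receptors without one bind TRAF proteins directly and switch on NF-kappa B and MAP kinase signalling, in which RIPK1 and the ubiquitin ligases cIAP1 (Birc2) and cIAP2 (Birc3) take part, and decoy receptors bind ligand without passing on the death signal. In the retina, TNF from glia and macrophages is known for its part in inflammation and in the death of photoreceptors and ganglion cells.

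A pair of mouse TRAIL decoy receptors, Tnfrsf22 and Tnfrsf23, are near-copies of each other. Their sequences are shown because the separate values of this pair depend on how far their reads can be told apart. Over 528 aligned coding bases, 478 were identical (90.5%). The 120 coding bases that precede the longest identical run differ at 13 positions, in capitals below. They come from exons 3 to 4 of either gene on the minus strand of chromosome 7 (GENCODE M21 transcripts, GRCm38), at chr7:143640769-143643300 for Tnfrsf22 and chr7:143670849-143679969 for Tnfrsf23, introns left out.
Tnfrsf22: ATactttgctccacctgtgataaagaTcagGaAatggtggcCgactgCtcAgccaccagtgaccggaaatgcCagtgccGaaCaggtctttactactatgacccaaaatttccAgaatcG
Tnfrsf23: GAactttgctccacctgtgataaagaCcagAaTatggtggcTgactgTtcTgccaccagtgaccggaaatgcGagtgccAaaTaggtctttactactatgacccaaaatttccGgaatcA
The run that follows, over exons 4 to 6, has the same 102 bases in both genes (chr7:143638426-143640768 for Tnfrsf22 and chr7:143668582-143670848 for Tnfrsf23).
Both genes: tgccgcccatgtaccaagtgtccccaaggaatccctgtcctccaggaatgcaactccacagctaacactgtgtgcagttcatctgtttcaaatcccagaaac
Of all windows of 50 bases in the annotated transcripts, 17.3% of those of Tnfrsf22 and 18.0% of those of Tnfrsf23 also occur in the other gene. Shared with any other gene were 27.4% of the windows of Tnfrsf22 and 19.3% of those of Tnfrsf23. Tnfrsf26, the third receptor of this cluster, is more distant. Its coding bases were 63.5% identical to those of Tnfrsf22 and 59.4% to those of Tnfrsf23, with no identical run over 10 bases, and 1.89% of its windows are shared with any other gene.

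The effective library sizes were 16728172 reads (empty vector) and 17639743 reads (3xF-TRPM1). Values are read counts scaled to library size (CPM), and 1 read was worth 0.0598 and 0.0567 CPM, respectively. The table lists genes above 1 CPM in both libraries, so members near zero in either have no value here. The log2 fold change is 3xF-TRPM1 over empty vector with a pseudocount of 0.5 CPM, as are all fold values given here, and it understates the change of low genes. Genes were called higher or lower at 1.5-fold or more, provided that the ratio of reads had a 95% exact binomial interval leaving out 1-fold. These counting intervals cover sampling of reads only, and carry no pseudocount. Values of mouse Trpm1 were not analysed here, and the construct encodes human TRPM1, so the labels were not checked on the expressed gene. Of 16 cone photoreceptor markers, 2 were in the table, cone transducin Gnat2 at 2.57 and 2.49 CPM and the thyroid hormone receptor Thrb at 9.21 and 11.2 CPM; the opsins were not analysed here.

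The 36 members summed to 1426 CPM with the empty vector and to 1419 CPM with 3xF-TRPM1. Of the members, 2 were higher (Tnfrsf25 and Tnfaip8) and 3 were lower (Tnfrsf26, Birc3 and Tnfrsf11a) in 3xF-TRPM1 cells, and 31 were neither. This is 5.56% and 8.33% of the members, against 3.91% higher and 3.07% lower over all genes, and the 5 called members stand against 6.98% of all genes called in either direction. With a count of 2 the share of higher members was near the background. The median log2 fold change was 0.013 over the members and 0.0093 over all genes, with 18 members above and 18 below 0. The members were spread more widely than the table as a whole. Their median absolute log2 fold change was 0.29, against 0.15 over all genes, and their quartiles were -0.21 and 0.31, against -0.14 and 0.17. When a mean of 5 CPM or more was required, the median absolute value was 0.19 over 30 members and 0.14 over all genes. The counting interval lay above 1-fold in 11 members (30.6%, background 23.1%) and below it in 10 (27.8%, background 19.7%).

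**Figure D1:**
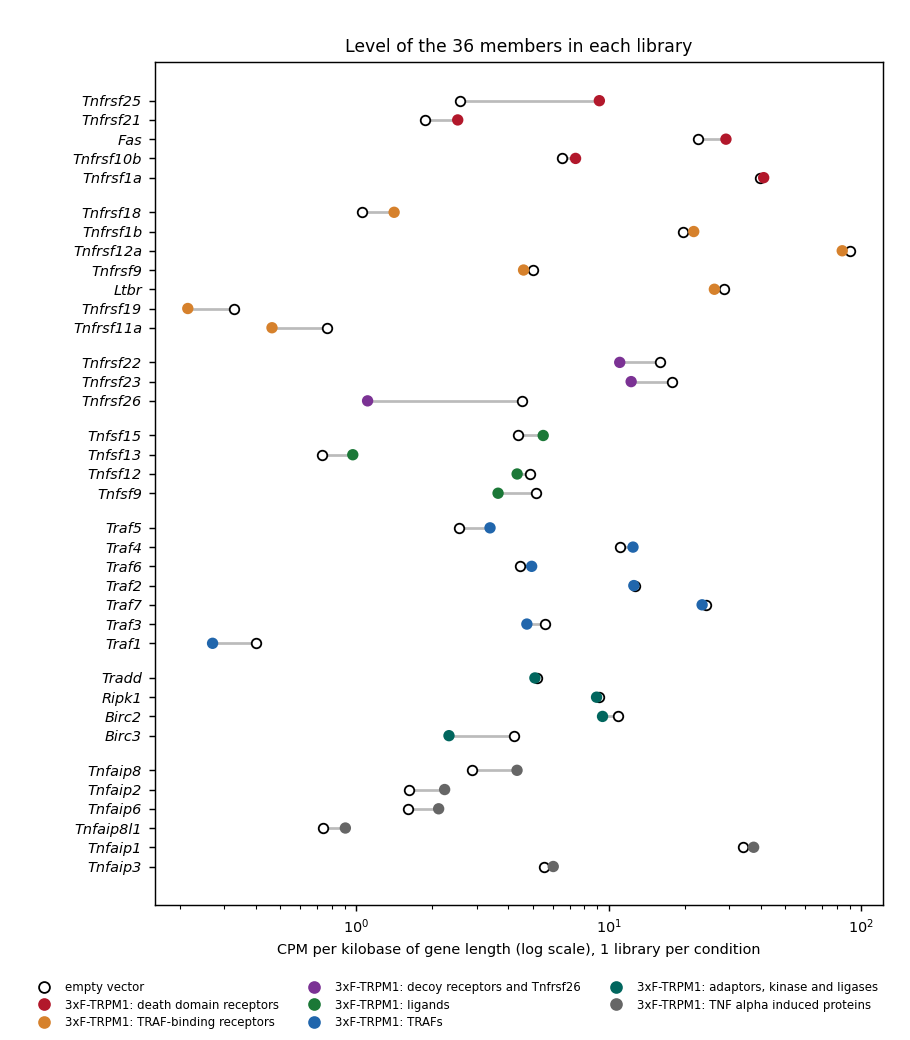
Level of each member per kilobase of gene length (CPM per kb, log axis), with an open circle for the empty vector library and a filled circle, coloured by role, for the 3xF-TRPM1 library. Tnfrsf12a has the highest level in both, and the longest lines join the circles of Tnfrsf25, which is higher, and Tnfrsf26, which is lower in 3xF-TRPM1 cells.

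Of 5 death domain receptors in the table, Tnfrsf25 was called higher and the other 4 were not called, all 5 with a log2 fold change above 0. The interval lay above 1-fold in 4 of the 5. Over all genes this share was 23.1%, and the median log2 fold change was 0.0093. Tnfrsf25 encodes DR3, the receptor of the cytokine TL1A, best known from activated T cells. It lies on the plus strand of chromosome 4 from 152115934 to 152120119 (GRCm38). It had 98 reads (5.86 CPM) with the empty vector and 369 reads (20.9 CPM) with 3xF-TRPM1. The 3xF-TRPM1 value was 3.37-fold higher, or 1.75 on the log2 scale (interval 1.51 to 2.17), at place 15 from the top of the 13281 genes. None of its windows of 50 bases occurs in another annotated gene, and no exon of another gene overlaps it. Fas, the receptor of Fas ligand, had 776 reads (46.4 CPM) and 1060 reads (60.1 CPM); its log2 fold change of 0.37 (0.24 to 0.51) was short of 1.5-fold. Tnfrsf21, which encodes DR6, a receptor known from neurons and lymphocytes, was at 7.71 and 10.4 CPM (log2 fold change 0.41, interval 0.095 to 0.76). Tnfrsf10b, the death receptor of TRAIL in the mouse, was at 35.7 and 40.3 CPM (0.17, interval 0.017 to 0.33). Tnfrsf1a, the main TNF receptor of most cells and the most abundant of the group per length, was at 103.4 and 106.5 CPM. Its log2 fold change of 0.043 had an interval of -0.052 to 0.14 that included 1-fold, and its sign turned under total count scaling.

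The 3 receptors of the chromosome 7 cluster all had fewer reads in 3xF-TRPM1 cells, with intervals that left out 1-fold, and Tnfrsf26 alone of them was called lower. Tnfrsf26 lies on the minus strand from 143607659 to 143628722, followed by Tnfrsf22 from 143634806 to 143649661 and Tnfrsf23 from 143665809 to 143685872. Tnfrsf26, a mouse receptor related to the decoy receptors, had 244 reads (14.6 CPM) with the empty vector and 63 reads (3.57 CPM) with 3xF-TRPM1. The empty vector value was 3.71-fold that of 3xF-TRPM1, or -1.89 on the log2 scale (interval -2.45 to -1.63), at place 13 from the bottom of the table. Tnfrsf22 had 1124 reads (67.2 CPM) and 823 reads (46.7 CPM), with -0.52 on the log2 scale (-0.66 to -0.40). Tnfrsf23 had 1182 reads (70.7 CPM) and 858 reads (48.6 CPM), with -0.53 on the log2 scale (-0.67 to -0.41). Both stood just short of 1.5-fold, at 1.44-fold and 1.45-fold. Because of the shared stretches shown above, the counting could have split reads between Tnfrsf22 and Tnfrsf23, and their separate values are uncertain. Their summed reads, which do not depend on that split, gave 137.9 and 95.3 CPM, with a log2 fold change of -0.53 (-0.62 to -0.44). Reads of stretches that Tnfrsf22 shares with further genes can still affect the sum. An antisense gene, E230032D23Rik, overlaps 3.33% of the exon bases of Tnfrsf26 and 4.14% of those of Tnfrsf23. The strand setting of the counting is not given in the sources used here, so reads of the antisense gene may be included.

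Around this cluster, no other gene within 1 Mb was called lower, while the non-coding RNA H19 just outside that window was. Within 1 Mb of Tnfrsf26, measured between gene bodies, 16 other genes were in the table, of which 1 was higher and 0 were lower by the same size rule; their median log2 fold change was -0.0078. The next gene of the table on one side, Cars, which encodes a cysteinyl-tRNA synthetase, was at 115.7 and 111.0 CPM (log2 fold change -0.060, interval -0.15 to 0.031). On the other side Osbpl5, a sterol-binding protein gene, was at 57.0 and 53.4 CPM (-0.092, interval -0.22 to 0.038). The imprinted cell cycle inhibitor Cdkn1c was at 15.2 and 19.8 CPM (0.37) and the imprinted antisense transcript Kcnq1ot1 at 20.9 and 20.1 CPM (-0.055). Just outside that window, 1030 kb from Tnfrsf26, the imprinted non-coding RNA H19 was lower by more than any of the receptors, with 5357 reads (320.2 CPM) and 982 reads (55.7 CPM), or -2.51 on the log2 scale (-2.62 to -2.43). Within 2 Mb, a window chosen after H19 was seen, 2 of 33 other genes were lower, H19 and Ifitm10 (-0.66). Beside these counts and those within 1 Mb, 3.07% of all genes were lower and 3.91% higher. In the wider window 1 other gene was higher. This gene was Nadsyn1, an enzyme of NAD synthesis, at 4.36 and 7.60 CPM (0.74, interval 0.38 to 1.23).

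**Figure D2:**
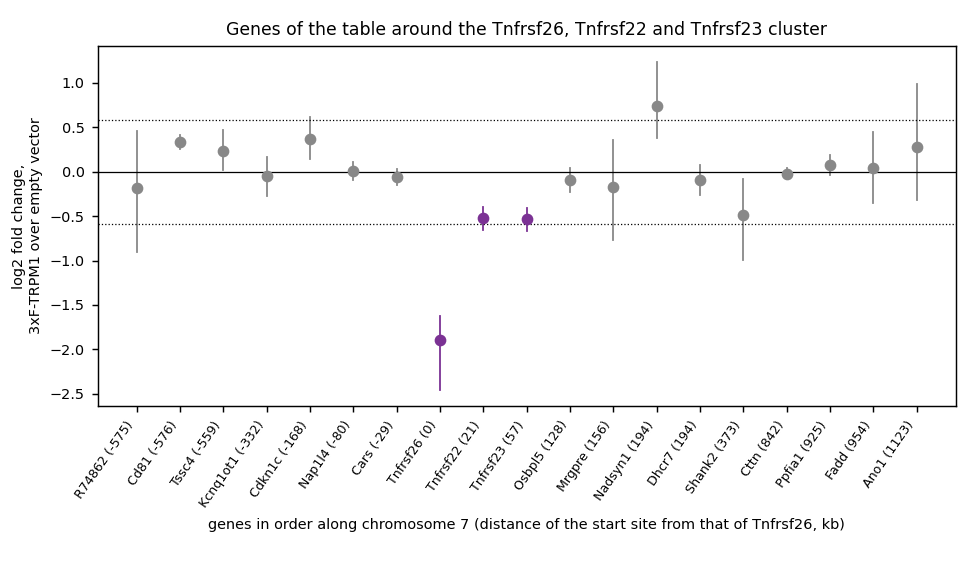
Log2 fold change (3xF-TRPM1 over empty vector, pseudocount 0.5 CPM) of the 19 genes of the table whose bodies lie within 1 Mb of that of Tnfrsf26 (H19 lies just outside and is not drawn), in order along chromosome 7, with the distance of the start site in kb in parentheses and bars for the 95% counting interval. The dotted lines mark 1.5-fold. Tnfrsf26, Tnfrsf22 and Tnfrsf23 (purple) lie together below 0, at -1.89, -0.52 and -0.53, and the next genes on either side, Cars and Osbpl5, lie near 0.

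Of 7 TRAF-binding receptors in the table, Tnfrsf11a was lower and the other 6 were not called. Tnfrsf11a, which encodes RANK, the receptor that drives osteoclast formation, lies on chromosome 1 from 105780718 to 105847981. It had 77 reads (4.60 CPM) and 49 reads (2.78 CPM), with -0.64 on the log2 scale (interval -1.28 to -0.19), and with a pseudocount of 1 CPM it fell short of the threshold at -0.57. Tnfrsf12a, which encodes Fn14, the receptor of TWEAK, was the most abundant member per length, with 90.0 CPM per kb in empty vector cells and 84.2 CPM per kb in 3xF-TRPM1 cells. Not scaled to length, its values were 173.9 and 162.6 CPM (log2 fold change -0.097, interval -0.17 to -0.022). The lymphotoxin beta receptor Ltbr was at 67.2 and 61.7 CPM (log2 fold change -0.12, interval -0.24 to -0.00067). Tnfrsf1b, the second TNF receptor, was at 74.96 and 82.94 CPM (0.14, interval 0.036 to 0.26). Tnfrsf9, which encodes the costimulatory receptor 4-1BB, was at 13.6 and 12.5 CPM, with an interval of -0.40 to 0.15 that included 1-fold. Tnfrsf18 (GITR) and Tnfrsf19 (TROY) had 18 to 38 reads in either library. Their intervals were -0.33 to 1.18 and -1.56 to 0.32, which include both 1-fold and 1.5-fold. Tnfrsf18 also shares 27.2% of its exon bases with the antisense gene Gm16008.

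Per length, the order of the receptors in empty vector cells was Tnfrsf12a at 90.0 CPM per kb, Tnfrsf1a at 39.9, Ltbr at 28.5, Fas at 22.5 and Tnfrsf1b at 19.6. In 3xF-TRPM1 cells Tnfrsf12a and Tnfrsf1a kept their places at 84.2 and 41.1 CPM per kb, while Fas at 29.1 stood above Ltbr at 26.2. Tnfrsf23 and Tnfrsf22 followed, at 17.8 and 15.9 CPM per kb in empty vector cells and 12.3 and 11.1 in 3xF-TRPM1 cells. Tnfrsf25 stood at 2.57 CPM per kb in empty vector cells, above Tnfrsf21 at 1.88. In 3xF-TRPM1 cells it was at 9.19 CPM per kb, above Tnfrsf10b at 7.39.

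Of 11 ligands 4 were in the table and the other 7 were not analysed here, which says nothing of their level in either library alone. None of the 4 was called in either direction, with 1 interval above and 1 below 1-fold. Tnfsf15, which encodes TL1A, the ligand of the receptor made by Tnfrsf25, had 245 reads (14.6 CPM) with the empty vector and 325 reads (18.4 CPM) with 3xF-TRPM1. Its log2 fold change was 0.32 (interval 0.087 to 0.58), so both genes of this ligand and receptor pair had more reads in the 3xF-TRPM1 library, Tnfsf15 by less than 1.5-fold. Tnfsf9, the 4-1BB ligand, was at 6.64 and 4.71 CPM (log2 fold change -0.46, interval -0.92 to -0.073). Its receptor gene Tnfrsf9 had a log2 fold change of -0.12. Tnfsf9 shares 14.9% of its exon bases with the antisense gene Gm11110. Tnfsf12, which encodes TWEAK, the Fn14 ligand, was at 7.41 and 6.58 CPM (-0.16, interval -0.55 to 0.20). Tnfsf13, which encodes the B cell factor APRIL, was at 1.20 and 1.59 CPM (0.30, interval -0.47 to 1.31). The annotated readthrough gene Tnfsfm13 covers 48.3% of the exon bases of Tnfsf12 and 60.0% of those of Tnfsf13 on the same strand, and the antisense gene Tnfsf13os overlaps 13.5% of Tnfsf13, so the values of both are uncertain.

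All 7 TRAFs were in the table and none was called. Their median log2 fold change was -0.017, and they ran from -0.48 for Traf1 to 0.39 for Traf5. Traf7, a RING and WD40 protein, was the most abundant per length, at 24.3 CPM per kb in empty vector and 23.5 CPM per kb in 3xF-TRPM1 cells; in CPM it was at 142.9 and 137.7. Traf2, which carries cIAP1 and cIAP2 to the TNF receptor complex, had 1086 reads (64.9 CPM) and 1132 reads (64.2 CPM). Its interval of -0.14 to 0.10 left out a 1.5-fold difference in either direction, as far as counting error goes. Traf3, an inhibitor of the non-canonical NF-kappa B pathway, was at 41.1 and 34.9 CPM (-0.24, interval -0.40 to -0.079). Traf5, a relative of Traf2 in lymphocyte receptor signalling, was at 11.7 and 15.5 CPM (0.39, interval 0.14 to 0.68). Traf4 and Traf6, the latter the adaptor of interleukin-1, Toll-like and RANK receptors, had log2 fold changes of 0.17 (0.013 to 0.33) and 0.15 (-0.0063 to 0.32). Traf1, itself a target of NF-kappa B, was at 3.53 and 2.38 CPM, from 59 and 42 reads, with an interval of -1.17 to 0.028 that included 1-fold.

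Among the adaptors, the kinase and the ligases of the receptor complex, Birc3 was lower and the other 3 were not called. Birc3, which encodes cIAP2, lies on the minus strand of chromosome 9 from 7848699 to 7873186. It had 354 reads (21.2 CPM) with the empty vector and 206 reads (11.7 CPM) with 3xF-TRPM1. The values differed 1.78-fold, or by -0.83 on the log2 scale (interval -1.11 to -0.61). Its neighbour and close relative Birc2 (cIAP1), 11.6 kb away from 7818227 to 7837064, had 835 reads (49.9 CPM) and 764 reads (43.3 CPM), with -0.20 on the log2 scale (-0.35 to -0.061). The intervals of Birc2 and Birc3 did not overlap. The coding bases of the pair were 76.8% identical, with a longest identical run of 114 bases. In all, 1.42% of the windows of 50 bases of Birc2 occur in Birc3, and reads from them could have been counted for either gene. Of the windows of Birc3, 7.56% occur in other genes, most often in Gm7019 (4.19%). Per length, Birc2 exceeded Birc3 in both libraries, at 10.9 against 4.22 CPM per kb in empty vector and 9.46 against 2.33 CPM per kb in 3xF-TRPM1 cells. Ripk1, the kinase at the branch of survival and death signalling, was at 76.6 and 74.7 CPM (-0.036, interval -0.15 to 0.075). The death domain adaptor Tradd was at 9.68 and 9.52 CPM (-0.023, interval -0.34 to 0.30).

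Of 6 TNF alpha induced proteins in the table, all had a log2 fold change above 0, and Tnfaip8 was called higher. The interval lay above 1-fold in 3 of them. Over all genes the median log2 fold change was 0.0093, and 23.1% of the intervals lay above 1-fold. Tnfaip8, a lipid-binding protein known as a negative regulator of apoptosis, had 495 reads (29.6 CPM) and 790 reads (44.8 CPM), with 0.59 on the log2 scale (interval 0.43 to 0.76). At 1.505-fold it stood at the threshold and fell short of it with either other scaling and with a pseudocount of 1 CPM. The antisense gene C030005K06Rik overlaps 12.7% of its exon bases. Tnfaip2, which takes part in the formation of membrane nanotubes, was at 8.07 and 11.2 CPM (0.45, interval 0.15 to 0.80). Tnfaip1, an adaptor of cullin-3 ubiquitin ligases and the most abundant of the group, was at 129.0 and 141.8 CPM (0.14, interval 0.053 to 0.22). Tnfaip3, which encodes the NF-kappa B inhibitor A20, had 672 reads (40.2 CPM) and 769 reads (43.6 CPM), with an interval of -0.033 to 0.27 that included 1-fold. Tnfaip6, a hyaluronan-binding secreted protein, and Tnfaip8l1 had intervals of -0.17 to 0.98 and -0.14 to 0.75.

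**Figure D3:**
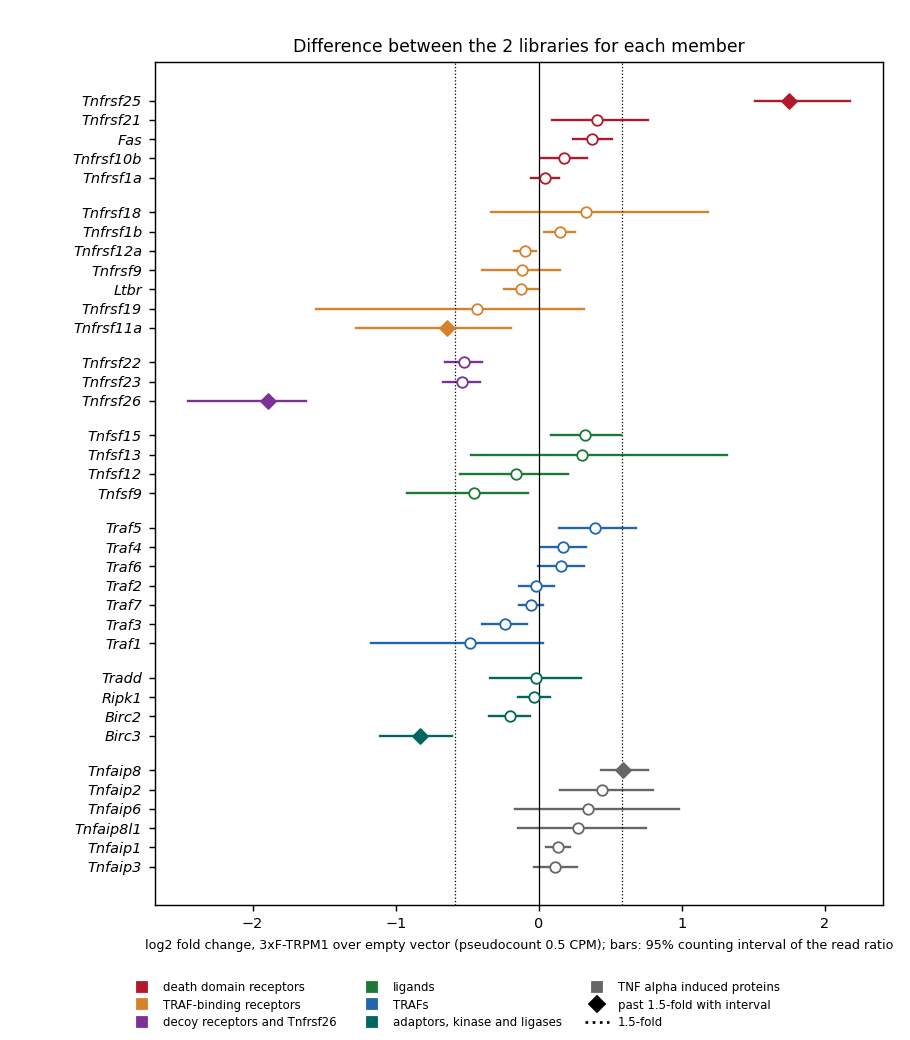
Log2 fold change (3xF-TRPM1 over empty vector) of the 36 members by role, with bars for the 95% counting interval of the read ratio. Filled diamonds mark the 5 members past 1.5-fold (dotted lines) whose interval left out 1-fold: Tnfrsf25 and Tnfaip8 on the right, Tnfrsf26, Birc3 and Tnfrsf11a on the left.

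Tnfaip3 and Birc3 are both known targets of NF-kappa B, and their promoters (RefSeq, GRCm38.p6, 250 bases before to 50 after the start) are shown because Birc3 was called lower (log2 fold change -0.83) and Tnfaip3 was not called (0.12). Capitals mark matches to the kappa B consensus on either strand. RefSeq gives Tnfaip3 2 promoter windows, and the one printed is that with matches; the other, chr10:19011914-19012213, has 0. The printed Tnfaip3 window is chr10:19015361-19015660 and the Birc3 window chr9:7873121-7873420, both on the minus strand.
Tnfaip3: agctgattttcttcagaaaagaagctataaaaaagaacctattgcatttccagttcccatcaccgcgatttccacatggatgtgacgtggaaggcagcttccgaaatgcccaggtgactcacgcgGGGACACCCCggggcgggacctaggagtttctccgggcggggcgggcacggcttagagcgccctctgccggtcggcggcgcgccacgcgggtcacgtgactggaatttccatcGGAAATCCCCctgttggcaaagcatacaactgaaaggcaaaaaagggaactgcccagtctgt
Birc3: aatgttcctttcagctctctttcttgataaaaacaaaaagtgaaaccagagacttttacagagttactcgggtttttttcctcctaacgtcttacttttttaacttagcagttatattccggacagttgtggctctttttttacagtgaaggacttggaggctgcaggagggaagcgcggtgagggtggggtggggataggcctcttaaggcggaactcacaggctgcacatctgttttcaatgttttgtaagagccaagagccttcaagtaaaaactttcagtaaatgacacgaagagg
The printed Tnfaip3 window holds 2 matches, at -125 to -116 and at -12 to -3 from the start, and the letters of the consensus are not in the Birc3 window. The 29 members with a promoter in the reference had 35 windows, of which 4 held a match (1 each of Tnfaip3, Tnfaip8l1, Tnfrsf9 and Traf3), beside 4.51% of all 32851 windows. None of these 4 members was called, beside 6.98% of all genes, and their log2 fold changes ran from -0.24 to 0.27. The called members Tnfrsf26 and Tnfaip8 had no promoter in the reference. The AP-1 motif TGAGTCA, searched on both strands, was in 5 of the 35 windows (Fas, Tnfaip3, Tnfaip6, Tnfrsf9 and Tnfsf13) and in 5.20% of all windows. None of these 5 was called either. With so few members and so small a share of genes called, these counts cannot show whether a motif goes with a call. A match is a description of the letters and not of a bound site.

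Beyond the members, 98 other genes of the pathway were listed, of which 82 were in the table; 2 were higher (2.44%, background 3.91%) and 4 were lower (4.88%, background 3.07%; 6 under total count scaling), with a median log2 fold change of 0.0027. Of the TNF receptors and ligands under other names, 2 of 12 were in the table. Eda2r, the death-inducing receptor of ectodysplasin A2 and a target of p53, was lower, at 7.71 and 4.03 CPM (log2 fold change -0.86, interval -1.38 to -0.51), and Relt was at 8.25 and 10.1 CPM. Of 13 genes of death signalling, all in the table, 1 was lower. This was Ripk3, the kinase that carries necroptosis, with 255 reads (15.2 CPM) and 126 reads (7.14 CPM), or -1.04 on the log2 scale (-1.41 to -0.78). Its substrate Mlkl was at 31.0 and 35.9 CPM, Fadd at 6.22 and 6.41 CPM, Casp8 at 28.8 and 30.1 CPM and the caspase-8 inhibitor Cflar at 123.3 and 113.4 CPM.

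No gene of the ubiquitin and scaffold list (15 of 17 in the table) or of the NF-kappa B subunits and inhibitors (10 of 11) was called, with medians of -0.046 and -0.056. Rela, the main activating subunit, was at 131.3 and 122.0 CPM, Nfkb1 at 210.2 and 219.1 CPM and the inhibitor Nfkbia at 99.7 and 112.4 CPM. Of 17 kinases, Map3k5, which encodes ASK1, an activator of JNK and p38 that TNF receptor signalling engages through TRAF2, was lower, at 6.87 and 2.95 CPM (log2 fold change -1.10, interval -1.72 to -0.74). Of 25 NF-kappa B target genes in the table, the chemokine Cxcl2 (0.74) and the pentraxin Ptx3 (0.65, from 180.0 to 282.4 CPM) were higher and the matrix metalloprotease Mmp3 (-1.18, from 117.2 to 51.4 CPM) was lower.

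**Figure D4:**
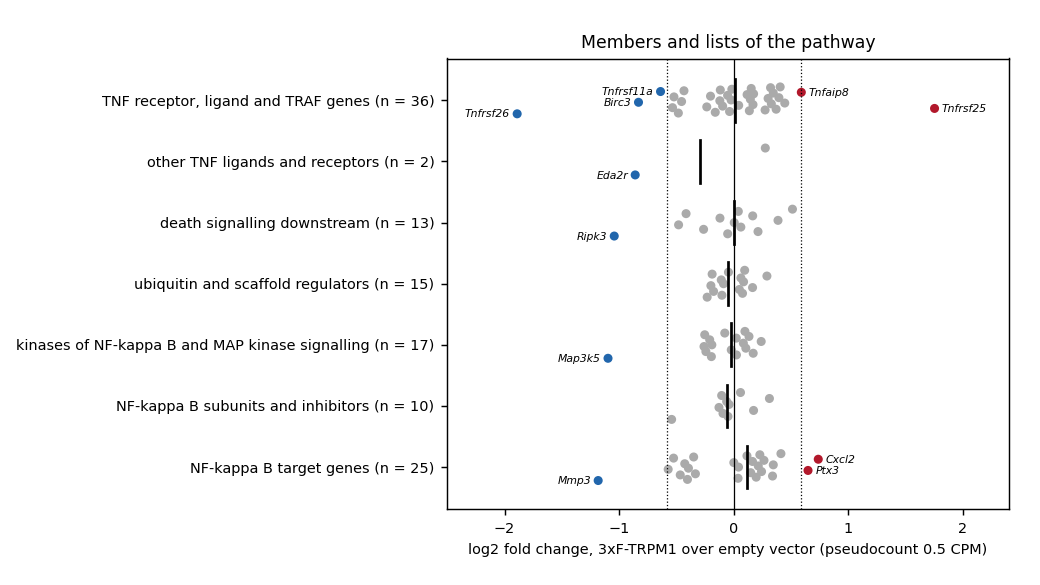
Log2 fold change (3xF-TRPM1 over empty vector, pseudocount 0.5 CPM) of each gene of the table in 7 rows: the 36 members at the top and below them the 6 lists of the pathway. Points are genes, black bars the median of a row and dotted lines 1.5-fold; genes called higher are red and lower blue, and the medians lie from -0.056 to 0.12 except in the row with 2 genes (-0.29).

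Many TNF ligands and receptors are made by leukocytes and stromal cells, so markers of such cells were read beside the members. Of 10 macrophage and microglia markers 2 were in the table and both were lower, beside 3.07% of all genes. Cd14 was at 11.1 and 6.12 CPM (185 and 108 reads) and Cd68 at 4.84 and 2.95 CPM (81 and 52 reads). The list summed to 15.9 and 9.07 CPM, and Ptprc, Csf1r, Adgre1 and the rest were not analysed here. Of 10 lymphocyte markers, Trac and Lck were in the table and neither was called (summed 7.65 and 9.86 CPM). Of 10 fibroblast markers 9 were in the table, 7 of them higher and 0 lower, beside 3.91% and 3.07% of all genes. Their sums were 8506 and 12643 CPM. Fibronectin Fn1, the most abundant, was at 4653 and 5817 CPM and not called, and the collagen gene Col1a2 was higher, at 2134 and 3817 CPM. Of 8 endothelial markers only Kdr was in the table, at 2.09 and 2.61 CPM. Any link between these markers and the values of the 5 called members was not tested. In bulk RNA, fewer cells that express a gene and less of its RNA per cell cannot be told apart.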

How the data were processed

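RNA of 661W cells was sequenced as 1 library per condition. By the methods and the submitters' processing notes, the authors used HISAT2 2.1.0 for alignment (GRCm38), featureCounts 2.0.0 for counting, edgeR 3.28.1 and DESeq 1.40.0, with annotation release and strand setting not given in the sources used here. The authors deposited CPM values per gene. Their fold changes, p-values and gene set table, and 2 columns that repeat the CPM, were not used.

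Dividing CPM by the step of its library gave whole reads (100% of values, tolerance 0.01), used for the counting intervals; no count test was possible with 1 library per condition. CPM was used as deposited, with a pseudocount of 0.5, a 1.5-fold threshold and 95% Clopper-Pearson intervals, which cover counting error only. The listed genes held 16404444 and 17869838 reads. The procedure was tested on simulated reads that varied by counting error alone, so that test does not cover differences between cultures.

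Levels per length used the gene lengths in bases that the authors deposited. The table gave no symbol for 105 genes, and the reference gave one for 102 of them. Coordinates are from GENCODE M21. All members were accounted for by role, with full values for called members, the 3 most abundant and the 2 with the largest change of a role, up to 4 called genes per pathway list and genes beside Tnfrsf26. Members and lists were chosen with earlier results of these data known. Exon overlaps, shared windows of 50 bases and motifs were computed from GENCODE transcripts and RefSeq promoters. Alternatives were 2 scalings, pseudocounts of 0.1 and 1, a 2-fold threshold and a filter at a mean of 5 CPM. Scripts ran in Python 3.11.15 with scipy 1.17.1, numpy 2.4.6, Biopython 1.88, matplotlib 3.10.9 and pandas 2.3.3.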

Additional observations from a re-analysis of the deposited data

How the results depend on the processing

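Tnfrsf25 stayed higher, and Tnfrsf26 lower, under all 6 alternatives, and Birc3 stayed lower under all but the 2-fold threshold. With either other scaling, with a pseudocount of 1 CPM or at 2-fold, 1 member in place of 2 was higher, since Tnfaip8 fell short (0.58 with median-of-ratios scaling, 0.54 with total count scaling). At 2-fold, 1 member (Tnfrsf26) in place of 3 was lower. Tnfrsf11a fell short with a pseudocount of 1 CPM (-0.57), and the filter at a mean of 5 CPM removed it. In either case 2 members in place of 3 were lower. Under total count scaling the log2 fold change of Tnfrsf1a was -0.0034. Over all genes, 115 were higher and 117 lower at 2-fold, and 217 were lower with a mean of at least 5 CPM, against 519 and 408; this filter left 30 of the 36 members. Under total count scaling 442 genes were higher and 480 lower, so that the excess of higher over lower genes turned round. At 2-fold, 0 of the other pathway genes were higher and 3 were lower. The counts of these genes under every alternative were added after seeing the data. Low read numbers limit Tnfrsf18, Tnfrsf19, Tnfsf13 and Traf1. No paired analysis was possible because each condition has 1 library.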
